A study of Mus musculus with 18 samples.

Results

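The 36 genes described here are interferon-stimulated genes, chosen by name from a table of 55357 genes measured in mouse back skin. They comprise 24 antiviral effectors, 3 transcription factors that act in interferon responses (Irf7, Irf9 and Stat2) and 9 GTPases of the guanylate-binding and immunity-related families. Bulk RNA of back skin was sequenced from 18 FVB mice aged 6 months, 1 library per mouse: 6 WT mice, 6 N-IKKα mice and 6 C-IKKα mice. Both transgenic groups carry exogenous IKKα in keratinocytes, in the nucleus in N-IKKα mice and in the cytoplasm in C-IKKα mice. IKKα is the product of Chuk and one of the kinases that activate NF-kB. The promoter of the transgenes and the number of founder lines are not stated in the labels, and the RNA came from whole back skin, not from isolated keratinocytes. Hair state and sex are not in the labels and were read from the data.

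Interferons are secreted signals of infected or activated cells. Type I interferons act through a receptor of Ifnar1 and Ifnar2 and the transcription factor complex ISGF3, which includes STAT2 and IRF9 and binds the interferon-stimulated response element (ISRE). Interferon gamma, the product mainly of T cells and natural killer cells, acts through a receptor of Ifngr1 and Ifngr2 and on genes that carry the gamma-activated site (GAS). Antiviral effectors such as the Ifit, Oas and Mx genes interfere with viral RNA, its translation and its transport. The GTPases coat and disrupt the vacuoles of intracellular microbes and are classical targets of interferon gamma. Skin keratinocytes, Langerhans cells, macrophages and lymphocytes can all express these genes.

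The RefSeq promoter table (build GRCm38.p6, 250 bases before to 50 bases after each start) held 25 of the 36 members. The ISRE core, searched as GAAA, any 2 bases and GAAA again on either strand, lay in the window of 16 of these 25 genes (64%), against 3.99% of 27025 genes in the table. It was present for 6 of 6 GTPases with a window, for 9 of 16 antiviral effectors and for 1 of 3 transcription factors. Those GTPases include Igtp, which is listed at 0 in all libraries and was not tested. They do not include Iigp1, which was tested but has no window in the promoter table. The GAS spelling TTCNNNGAA, which reads the same on both strands, was found for 7 of the 25 genes (28%), against 9.55% of all genes. Matches of 1 motif were allowed to overlap each other and those of the other motif. A match describes letters only and shows no binding, and the windows come from an earlier build than the GRCm39 build of the counts. The following stretches of 60 bases are shown because they carry these matches in both kinds of member, on the strand of the gene and with ISRE matches in capitals.
Isg15 (chr4:156200850-156200909, minus strand): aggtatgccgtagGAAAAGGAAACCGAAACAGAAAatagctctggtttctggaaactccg
Ifit1 (chr19:34640779-34640838, plus strand): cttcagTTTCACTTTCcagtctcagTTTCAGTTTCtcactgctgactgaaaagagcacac
Ifit3 (chr19:34583382-34583441, plus strand): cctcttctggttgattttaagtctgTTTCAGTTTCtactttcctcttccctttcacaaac
Ifit3b (chr19:34607778-34607837, plus strand): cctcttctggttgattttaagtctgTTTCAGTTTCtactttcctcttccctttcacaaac
Oas1a (chr5:120907526-120907585, minus strand): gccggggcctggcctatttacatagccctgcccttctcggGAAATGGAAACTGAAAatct
Gbp2 (chr3:142620579-142620638, plus strand): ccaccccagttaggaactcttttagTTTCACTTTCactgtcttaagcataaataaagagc
Gbp3 (chr3:142559980-142560039, plus strand): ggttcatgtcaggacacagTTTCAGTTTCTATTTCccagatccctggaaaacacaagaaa
Gbp5 (chr3:142496744-142496803, plus strand): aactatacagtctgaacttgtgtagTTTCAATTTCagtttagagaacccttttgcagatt
Gbp7 (chr3:142530258-142530317, plus strand): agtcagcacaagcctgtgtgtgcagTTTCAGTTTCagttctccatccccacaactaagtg
Irgm1 (chr11:48871421-48871480, minus strand): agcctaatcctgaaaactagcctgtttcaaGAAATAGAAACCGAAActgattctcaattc
The stretches of Ifit3 and Ifit3b are the same letter for letter. These neighbours on chromosome 19 are close copies, so the way reads were split between them in the deposited counts is uncertain. The Gbp genes shown lie together on chromosome 3 and are also related in sequence.

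Each mouse gave 11.1 to 15.7 M recovered reads (M, megareads), and a count of 0 allows up to 2.45 to 3.61 normalized counts, counting error only. Transcripts of growing hair were abundant in 6 libraries: WT 1 and 4, N-IKKα 8, 9 and 11, and C-IKKα 14. In these 6, the mean log2 value of 29 hair shaft, root sheath and hair matrix genes was 9.84 to 12.0, and in the other 12 it was 2.17 to 5.22. All 6 growing-hair libraries read as female from Ddx3y, as did 4 of the other 12, so hair state and sex go partly together. Libraries read as male were 2 of 6 in WT, 2 of 6 in N-IKKα and 4 of 6 in C-IKKα, so genotype and sex also go partly together. The split by hair state uses no interferon-stimulated gene, but it was defined from the data and is not a group of the study. Chuk was 1007 ± 147 normalized counts in WT (SD, n = 6), 990 ± 93.3 in N-IKKα and 889 ± 26.3 in C-IKKα. It did not pass the test in either transgenic group, and the labels do not say whether reads of the transgenes count towards this gene. The 8 keratinocyte markers examined summed to at least 61986 normalized counts in each library.

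Of the 36 members, 33 had at least 10 normalized counts in at least 6 libraries and were tested: 24 antiviral effectors, 3 transcription factors and 6 GTPases. The remaining 3, Gbp4, Gbp6 and Igtp, are listed at 0 in all 18 libraries. So were Gbp9, Gbp10, Ifi47, Tgtp1 and Tgtp2 among 11 further GTPases, and also Myd88, an adaptor that most cells use. These zeros can therefore be failed estimates, and no level is drawn from them. Levels per kilobase of annotated exon in WT skin overlapped between the subgroups. The GTPases had a median of 108 normalized counts per kilobase, from 20.9 for Gbp5 to 153 for Gbp2. The antiviral effectors had a median of 39.6, from 7.76 for Ifi44 to 269 for Ifi27l2a. Among the transcription factors, Irf7 had the lowest level per kilobase at 30.1 and Stat2 the highest at 110.5.

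**Figure D1:**
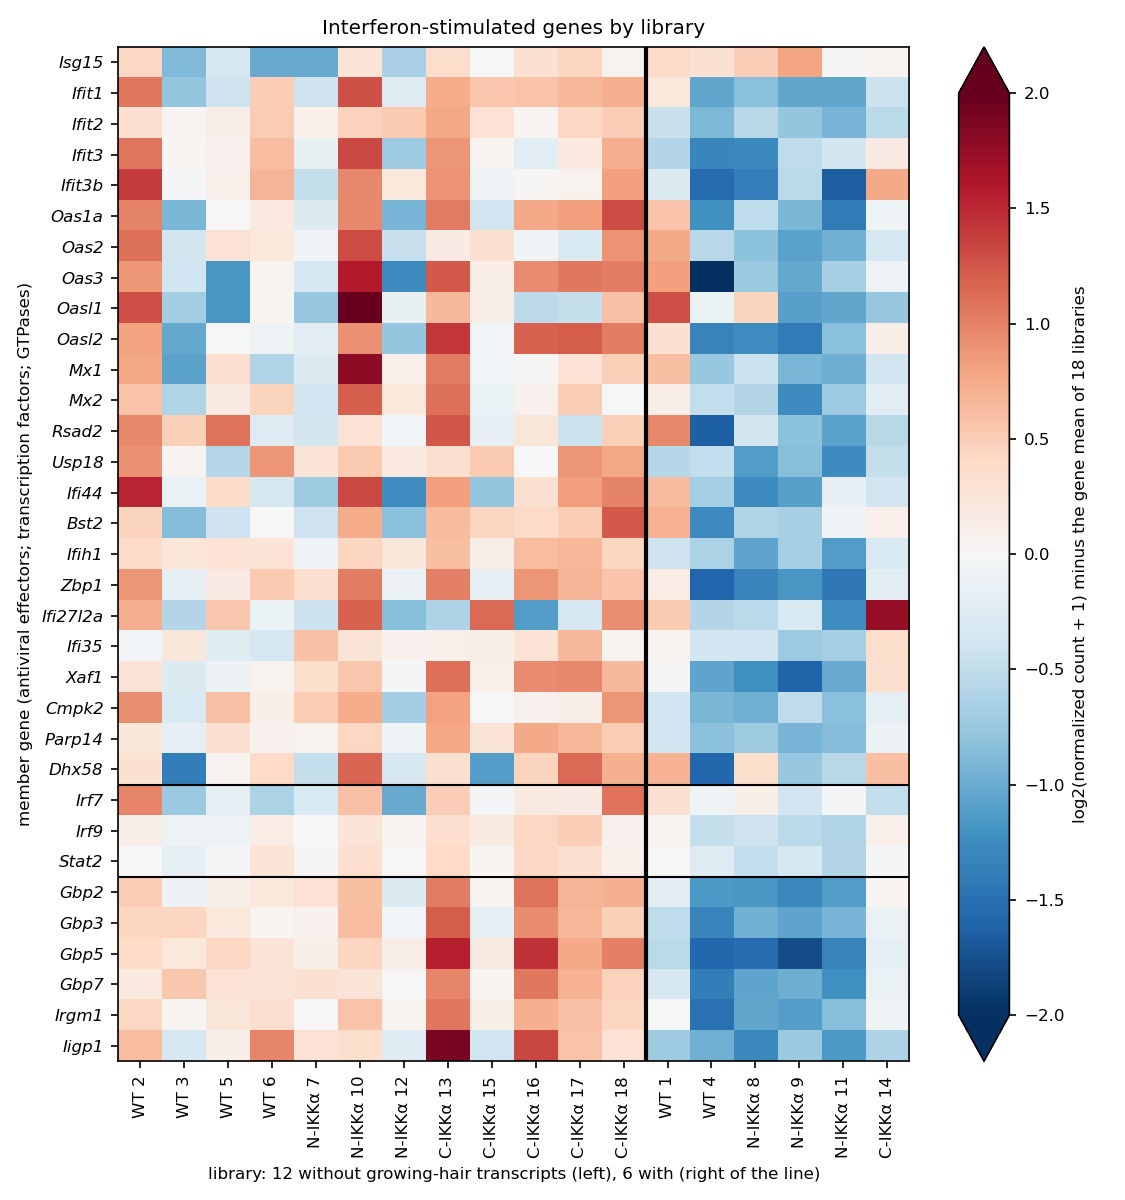
Each row is 1 of the 33 measured members, each column 1 library, and colour gives log2(normalized count + 1) minus the mean of that gene over 18 libraries; the colour scale ends at 2 in either direction. The 12 libraries without growing-hair transcripts stand left of the vertical line and the 6 with them right of it, where the GTPases (lowest block) are mostly blue. The antiviral effectors (top block) are mostly blue in WT 4 and N-IKKα 8, 9 and 11, but their median deviation is 0.26 in WT 1 and -0.15 in C-IKKα 14.

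The first comparison asked how skin with cytoplasmic IKKα differed from WT skin. No member passed the test in C-IKKα against WT, among 33 tested (limma, Benjamini-Hochberg adjusted over 17667 genes), where 0.345% of all genes were called higher and 0% lower. Before adjustment, 6 members had p below 0.05, which held for 3.61% of all genes in the higher and 2.12% in the lower direction. edgeR and DESeq2 on recovered reads also called 0 members, where they called 0.311% and 0.77% of all genes higher. The fitted differences were positive for 30 of 33 members, against 50% of all genes. Of tested T cell and natural killer markers 92.3% were also positive, and of Langerhans and dendritic cell markers 91.7%. The share was 85.7% for plasmacytoid dendritic cell, 83.3% for fibroblast, 75% for keratinocyte and 75% for B and plasma cell markers. It was 66.7% for endothelial, 60% for macrophage and 25% for neutrophil markers. The members of 1 library are not independent, so these signs are not separate observations. The median log2 fold change of the members was 0.38, and that of all tested genes was 0.00. The median was 0.35 for antiviral effectors, 0.29 for transcription factors and 0.60 for the GTPases, of which 6 of 6 were positive. Without the 6 growing-hair libraries these medians were 0.23, 0.28 and 0.37, where 1 of 5 C-IKKα and 2 of 4 WT libraries read as female. No member had C-IKKα libraries wholly apart from WT libraries, which held for 0.838% of all genes in the higher and 0.147% in the lower direction.

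Parp14, an ADP-ribosyltransferase of the interferon response, ran from 494 through a median of 849 to 1079 normalized counts in WT. It ran from 462 through 684 to 1173 in N-IKKα and from 811 through 1319 to 1491 in C-IKKα. Of the C-IKKα libraries, 5 of 6 lay at 1047 or above, 811 was C-IKKα 14, and the groups overlapped. Parp14 differed by 0.60 on the log2 scale between C-IKKα and WT, higher in C-IKKα (SE 0.24, limma adjusted p = 0.733). With hair state and sex in the model it was 0.51, with a limma adjusted p of 0.0457, and Parp14 was then the 1 member called, where 0.725% of all genes were called higher.

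Oasl2, a relative of the oligoadenylate synthetases that sense double-stranded RNA, ran from 132 through 322 to 583 normalized counts in WT. It ran from 126 through 191 to 630 in N-IKKα and from 323 through 722 to 896 in C-IKKα. The C-IKKα libraries 13, 16, 17 and 18 were above all WT and N-IKKα libraries, while C-IKKα 14 and 15 lay within their range. Against WT, Oasl2 in C-IKKα had a log2 fold change of 1.05 (SE 0.41, limma adjusted p = 0.686).

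Xaf1, a pro-apoptotic protein induced by interferon, ran from 193 through 385 to 481 normalized counts in WT. It ran from 132 through 297 to 587 in N-IKKα and from 432 through 706 to 869 in C-IKKα. Only C-IKKα 15 of the C-IKKα libraries lay below the highest WT library. Against WT, Xaf1 in C-IKKα had a log2 fold change of 0.87 (SE 0.33), with a limma adjusted p of 0.658, the smallest among the members in this contrast. Bst2, or tetherin, which holds budding virions at the cell surface, had a log2 fold change of 0.78 (SE 0.33, limma adjusted p = 0.761).

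Among the transcription factors, Irf9, the DNA-binding subunit of ISGF3, ran from 394 through 537 to 605 normalized counts in WT. It ran from 359 through 481 to 657 in N-IKKα and from 581 through 653 to 771 in C-IKKα. The C-IKKα libraries were all in or above the upper part of the WT range, and the groups overlapped. The log2 fold change of Irf9 in C-IKKα against WT was 0.33 (SE 0.15, limma adjusted p = 0.836). Stat2, its partner in ISGF3, had a log2 fold change of 0.24, and Irf7, which drives the interferon alpha genes, had one of 0.29.

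Among the GTPases, Gbp5, which promotes inflammasome assembly, ran from 45.7 through 163 to 185 normalized counts in WT. It ran from 39.7 through 102 to 187 in N-IKKα and from 122 through 256 to 406 in C-IKKα. The highest values belonged to C-IKKα 13 and 16, and the C-IKKα libraries 14 and 15 lay within the WT range. The log2 fold change of Gbp5 in C-IKKα against WT was 0.93 (SE 0.44, limma adjusted p = 0.872). Gbp2, Gbp3 and Gbp7, which act on vacuoles and microbes in the cytosol, had log2 fold changes of 0.71, 0.62 and 0.58 in the same contrast. Iigp1, an effector GTPase that loads onto vacuoles, ran from 322 through 591 to 1231 normalized counts in WT and from 408 through 850 to 2354 in C-IKKα. Its C-IKKα libraries spanned a wider range than those of any other GTPase measured, with C-IKKα 13 and 16 on top.

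**Figure D2:**
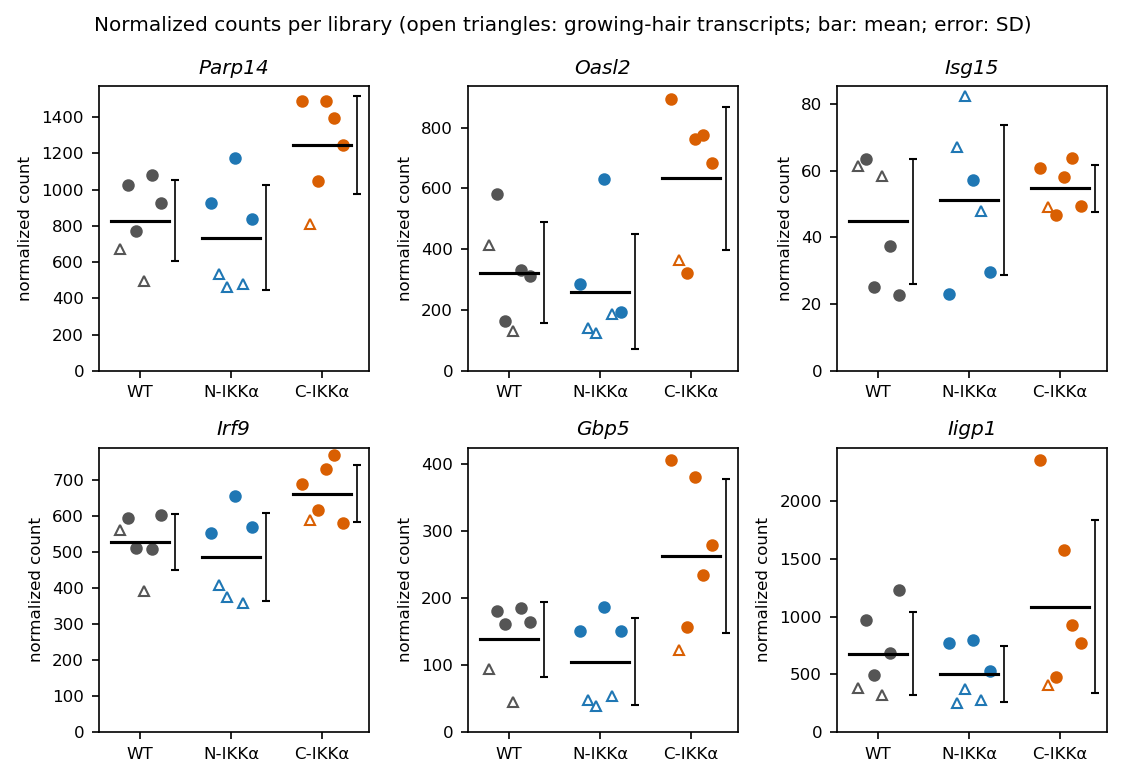
Normalized counts of Parp14, Oasl2, Isg15, Irf9, Gbp5 and Iigp1 per library; filled circles are libraries without growing-hair transcripts, open triangles the 6 with them, lines the group means and error bars the SD (n = 6). For Gbp5, the open triangles of WT and N-IKKα lie between 39.7 and 94.8, below all filled circles of the same groups.

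The second comparison concerned nuclear IKKα. N-IKKα against WT, which shares the WT libraries with the first comparison, had 0 of 33 members called (limma), where 0.00566% of all genes were called higher and 0% lower. Before adjustment, 0 members had p below 0.05, against 2.1% of all genes higher and 2.04% lower. edgeR and DESeq2 called 0 members, and each called 0.00566% of all genes higher. The fitted differences were negative for 30 of 33 members and for 48.8% of all genes, with a median log2 fold change of -0.30 over the members. Of tested Langerhans and dendritic cell markers 91.7% were also negative, of T cell and natural killer markers 69.2%, and of the hair genes 3.57%. The share was 100% for macrophage, neutrophil and endothelial markers and 87.5% for keratinocyte markers. For plasmacytoid dendritic cell markers it was 71.4%, for fibroblast markers 66.7% and for B and plasma cell markers 50%. The median was -0.30 for antiviral effectors, -0.14 for transcription factors and -0.38 for GTPases. Ifi44, an interferon-induced cytoplasmic protein, had the smallest p here, with a log2 fold change of -0.75 (SE 0.46, limma adjusted p = 0.880). Oas2, an oligoadenylate synthetase, was at -0.58, Stat2 at -0.14, Gbp5 at -0.52 and Gbp2 at -0.38 on the same scale. Growing-hair libraries made up 3 of 6 in N-IKKα and 2 of 6 in WT. Without all 6 growing-hair libraries the median over the members was 0.00, and that of the antiviral effectors was 0.04 and that of the GTPases -0.07. The difference changed sign for 16 of 33 members there, and 17 were positive. That fit held 3 N-IKKα libraries, N-IKKα 10 among them, and 4 WT libraries, of which 1 and 2 read as female. Between the growing-hair libraries, 3 of N-IKKα and 2 of WT, the median difference was -0.49 for antiviral effectors and -0.24 for GTPases. That difference was not tested.

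In the direct comparison of the transgenic groups, 0 of 33 members were called in N-IKKα against C-IKKα (limma), where 0.425% of all genes were called lower and 0.00566% higher. Before adjustment, 16 members had p below 0.05, against 6.59% of all genes lower and 5.07% higher. Those 16 included 6 of 6 GTPases, 8 of 24 antiviral effectors and 2 of 3 transcription factors. The difference was negative for 32 of 33 members and for 49.1% of all genes, with a member median of -0.73 on the log2 scale: -0.68 for antiviral effectors, -0.40 for transcription factors and -0.97 for GTPases. It was also negative for 100% of tested T cell and natural killer markers and 91.7% of Langerhans and dendritic cell markers. The share was 100% for macrophage, neutrophil, B and plasma cell, endothelial and fibroblast markers. For plasmacytoid dendritic cell markers it was 85.7%, for keratinocyte markers 75% and for the hair genes 0%. Gbp5 had a log2 fold change of -1.45 (SE 0.45, limma adjusted p = 0.261) and Oasl2 of -1.42 (SE 0.41, limma adjusted p = 0.212). With hair state in the model, Parp14 was called lower in N-IKKα than in C-IKKα, at -0.55 on the log2 scale (limma adjusted p = 0.0407), where 0.662% of all genes were. Without N-IKKα 10, which had the highest Oasl2 of its group, Oasl2 was called, at -1.72 (limma adjusted p = 0.0452), where 0.526% of all genes were called lower. In the 12 libraries without growing-hair transcripts the median over the members was -0.32, with 0 called, where 0.266% of all genes were called lower.

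**Figure D3:**
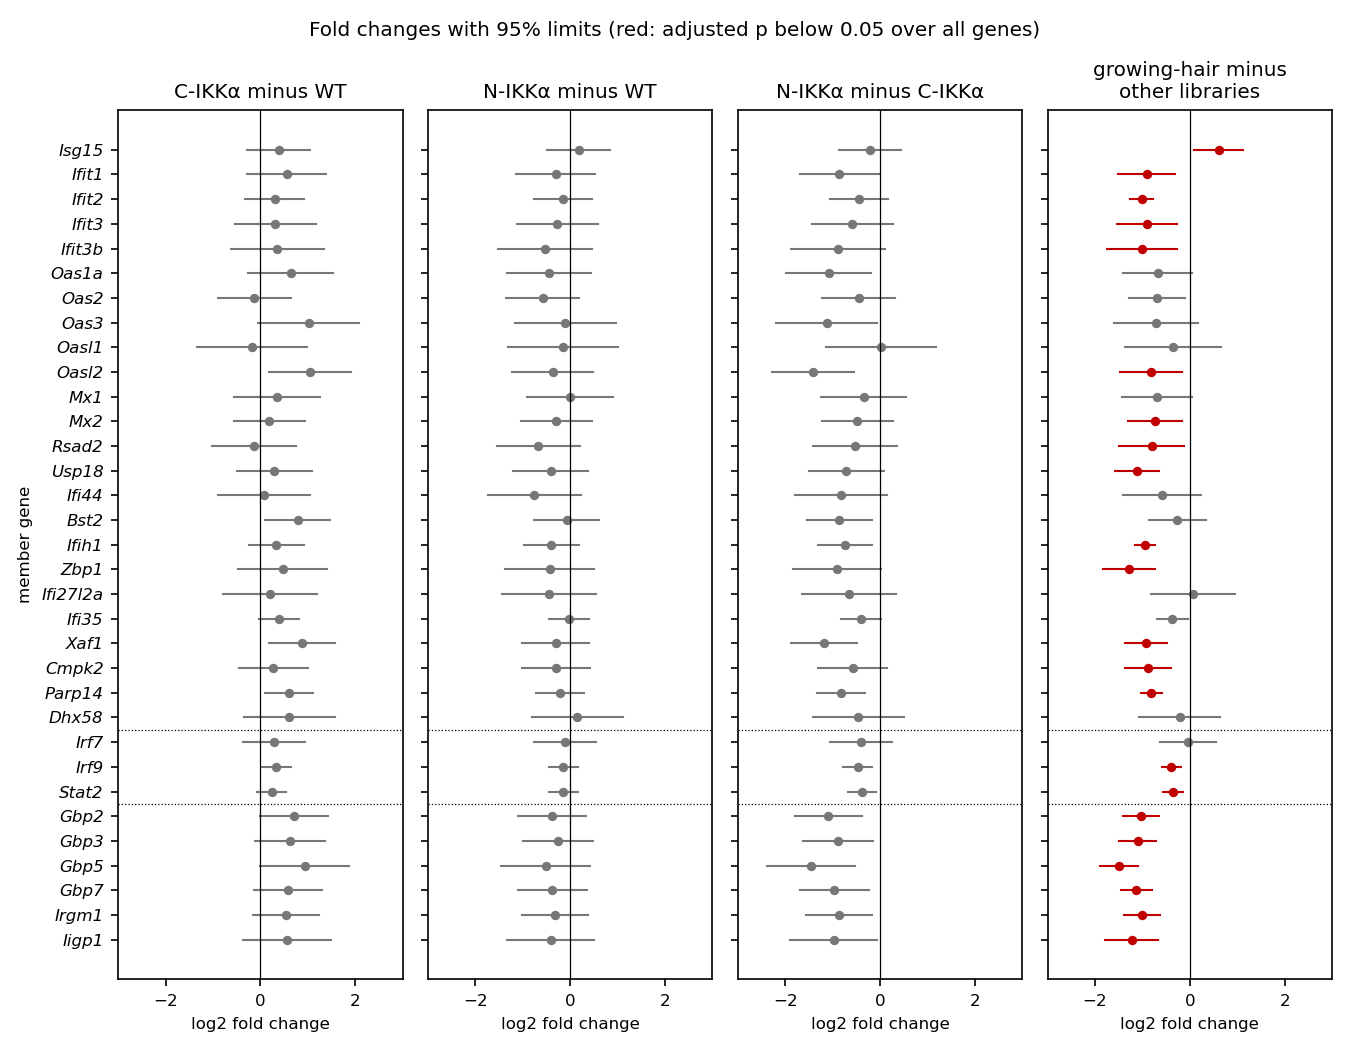
Log2 fold change (horizontal axis) of each of the 33 tested members with its 95% limits in 4 contrasts; red marks a limma adjusted p below 0.05 over all 17667 genes. Grey fills the 3 genotype contrasts, and red marks 22 members in the growing-hair contrast, 21 to the left of 0 and Isg15 to the right.

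More members were called between hair states than between genotypes. With genotype in the model, 21 of 33 members (63.6%) were lower in the 6 growing-hair libraries than in the other 12 (limma), where 26.3% of all genes were called lower and 25.2% higher. The 1 member called higher was Isg15. The median log2 fold change of the members was -0.81, against -0.01 for all tested genes. Of the GTPases, 6 of 6 fell, with a median of -1.12. Of the antiviral effectors, 13 of 24 fell, with a median of -0.77. Of the transcription factors, Irf9 fell by 0.39 (SE 0.10) and Stat2 by 0.36 (SE 0.10) on the log2 scale, and Irf7 was at -0.04 with no call. The calls of Irf9 and Stat2 did not hold in the female libraries alone, as given with that fit. edgeR called 20 members and 24.5% of all genes lower, and DESeq2 called 21 members and 26.1% of all genes.

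Gbp5 ran from 39.7 through 50.9 to 122 normalized counts in the 6 growing-hair libraries and from 150 through 183 to 406 in the other 12. C-IKKα 14 held the 122, and the sets did not overlap. The log2 fold change of Gbp5 was -1.49 (SE 0.19, limma adjusted p = 6.52e-06), the most negative among the members.

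Gbp7 ran from 245 through 317 to 584 normalized counts in growing hair and from 650 through 794 to 1341 in the other libraries, also without overlap. Its log2 fold change was -1.13 (SE 0.16, limma adjusted p = 1.27e-05). Gbp3 was lower by 1.10 and Gbp2 fell by 1.03 on the log2 scale. Irgm1, a regulator of the other immunity-related GTPases and of autophagy, ran from 197.5 through 290 to 551 in growing hair and from 555 through 722 to 1155 elsewhere. Its highest growing-hair library nearly reached the lowest of the other 12. Iigp1 ran from 255 through 349 to 408 normalized counts in growing hair and from 476 through 786 to 2354 elsewhere, and its log2 fold change was -1.23 (SE 0.27, limma adjusted p = 0.000935).

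Among the antiviral effectors, Ifih1, which encodes the double-stranded RNA sensor MDA5, ran from 177 through 246 to 313 normalized counts in growing hair. In the other 12 libraries it ran from 368 through 485 to 616, so the sets did not overlap. The log2 fold change of Ifih1 was -0.95 (SE 0.10, limma adjusted p = 1.07e-06). Ifit2, which binds viral RNA and blocks translation, ran from 154 through 186 to 217 in growing hair and from 309 through 384 to 506 elsewhere. It also had no overlap and a log2 fold change of -1.01 (SE 0.12, limma adjusted p = 1.63e-06). Parp14 had a log2 fold change of -0.82 (SE 0.11), and its growing-hair values of 462 to 811 overlapped the other values of 771 to 1491. Zbp1, a sensor of Z-form nucleic acids, fell by 1.28 on the log2 scale, and Usp18, the protease that removes ISG15 from proteins, fell by 1.11. Xaf1, Ifit1, Ifit3, Ifit3b, Cmpk2, Oasl2, Rsad2 and Mx2 were also called lower. The call of Rsad2, or viperin, was lost in 12 of 18 fits that left out 1 library, that of Oasl2 in 7, that of Mx2 in 5, that of Ifit3b in 3 and that of Ifit3 in 1. Leaving out WT 4 ended all of these calls, with limma adjusted p from 0.0582 for Mx2 to 0.209 for Rsad2. Across the members, 6 of 33 had all growing-hair values below all others, namely Ifit2, Ifih1, Gbp5, Gbp7, Irgm1 and Iigp1, where 5.25% of all genes did so in the lower and 8.45% in the higher direction.

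The members not called by hair state were antiviral effectors and Irf7. Oas2 had a log2 fold change of -0.69 with a limma adjusted p of 0.0502, and Ifi35 was at -0.36 with one of 0.0635. Oas1a, Oas3, Mx1, Ifi44, Bst2, Oasl1, Dhx58 and Ifi27l2a had log2 fold changes from -0.71 to 0.07. Ifi27l2a ran from 45.9 through 82.2 to 369 normalized counts in growing hair, and the 369 was C-IKKα 14, the highest of all 18 libraries. With sex also in the model, 25 members were called lower and 0 higher, where 21% of all genes were called lower and 20.2% higher. The median log2 fold change of the antiviral effectors was then -1.14, near the -1.19 of the GTPases. Among the 10 female libraries alone, 6 with growing hair and 4 without, 21 members were called lower and 0 higher, where 12.3% of all genes were called lower and 14.7% higher. Of these 21, 17 were among the members called lower in all 18 libraries. In the females Irf9, Stat2, Mx2 and Rsad2 lost their calls, with limma adjusted p of 0.115, 0.0919, 0.0604 and 0.0718, so 0 of 3 transcription factors were called. The medians there were -1.15 for the antiviral effectors and -1.20 for the GTPases.

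Isg15, a ubiquitin-like protein that is joined to other proteins during interferon responses, ran from 48.0 through 59.9 to 82.3 normalized counts in the 6 growing-hair libraries. In the other 12 it ran from 22.9 through 48.1 to 63.8. The 4 lowest values belonged to libraries read as male, WT 3 and 6 and N-IKKα 7 and 12. The log2 fold change was 0.61 (SE 0.25, limma adjusted p = 0.0439), and with sex in the model it was 0.25 (limma adjusted p = 0.505). The call was also lost in 11 of 18 fits without 1 library, at limma adjusted p from 0.0516 to 0.103. The 4 male C-IKKα libraries ran from 46.8 to 63.8 and the 4 other male libraries from 22.9 to 29.7. Isg15 was chosen for this split by sex after its values were seen, and the difference was not tested.

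Within each genotype the GTPases separated the hair states more completely than the antiviral effectors did by count, and that difference was not tested. In WT, 6 of 6 GTPases and 6 of 24 antiviral effectors had both growing-hair libraries below the 4 others, where 21.5% of all genes did. In N-IKKα, 6 of 6 GTPases and 14 of 24 antiviral effectors had the 3 growing-hair libraries below the 3 others, against 26.9% of all genes. In C-IKKα, with 1 growing-hair library, the counts were 5 of 6 and 14 of 24, against 25.8% of all genes. The median difference between hair states was -1.18 for GTPases and -0.44 for antiviral effectors in WT on the log2 scale. In N-IKKα the medians were -1.24 and -1.003, and in C-IKKα they were -0.77 and -0.72. All growing-hair libraries read as female, while the others held 2 males in WT, 2 in N-IKKα and 4 in C-IKKα. Sex was therefore not separated from hair state in these counts and medians. With sex in the model the subgroup medians over all 18 libraries lay close together, as given above.

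**Figure D4:**
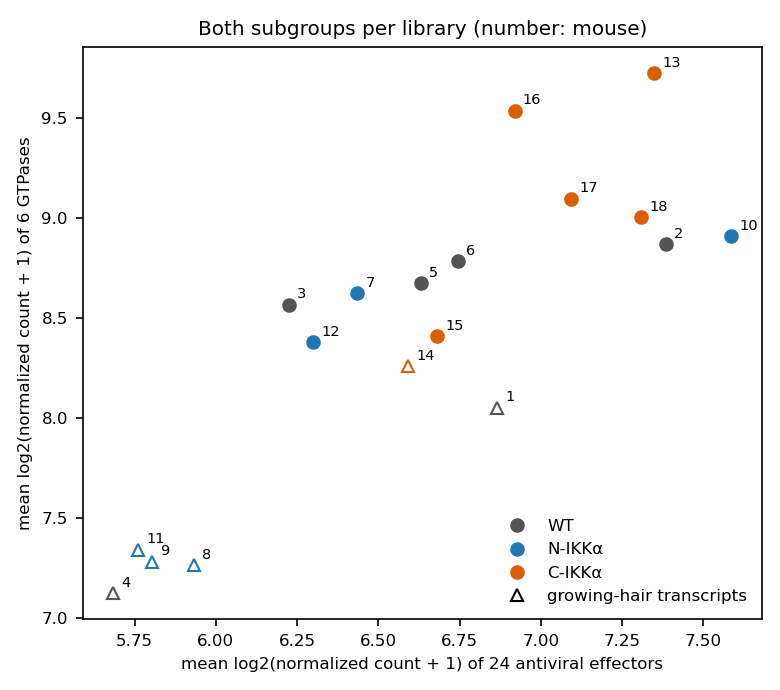
Mean log2(normalized count + 1) of the 24 antiviral effectors (horizontal axis) and of the 6 measured GTPases (vertical axis) in each of 18 libraries, labelled by mouse number; open triangles are the 6 growing-hair libraries. N-IKKα 10 lies farthest right at 7.59, C-IKKα 13 and 16 lie highest at 9.72 and 9.54, and 4 growing-hair libraries of WT and N-IKKα lie at the lower left.

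The antiviral effectors and the GTPases did not follow each other in every library. N-IKKα 10 was the highest of its group in 21 of 24 antiviral effectors, 3 of 3 transcription factors and 5 of 6 GTPases, where it was the highest in 16.6% of all genes. Its antiviral mean of 7.59 was the highest of 18 libraries, and its GTPase mean of 8.91 was below those of C-IKKα 13, 16, 17 and 18. C-IKKα 13 had the highest value of all 18 libraries, and so of its group, for 4 of 6 GTPases and C-IKKα 16 for the other 2. They were the highest of their group in 14.8% and 13.4% of all genes. The GTPase mean exceeded the antiviral mean by 2.62 in C-IKKα 16 and by 2.38 in C-IKKα 13 on the log2 scale, the widest gaps. The narrowest were 1.19 in WT 1, 1.33 in N-IKKα 10 and 1.33 in N-IKKα 8. WT 4 was the lowest of its group in 18 of 24 antiviral effectors and 6 of 6 GTPases, where it was the lowest in 28.4% of all genes.

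Most lists of markers of immune and other skin cells held genes called lower in growing hair, where 26.3% of all genes were. With sex in the model that share was 21%, and in the 10 female libraries alone 12.3%. Of 16 markers of T cells and natural killer cells, 13 were tested and 11 fell in growing hair, with a median log2 fold change of -1.23. With sex in the model 8 of the 13 fell, and in females alone 6. Their summed level was 362 to 570 normalized counts in growing hair and 866 to 1303 elsewhere, and 0 of the 16 were at 0 in all libraries. Of 12 markers of Langerhans and dendritic cells, 10 fell, with a median of -1.29, and their sum was 4527 to 9099 against 8670 to 18955. In females alone 8 of these 12 fell. Of the macrophage markers 5 of 10 fell, of the fibroblast markers 5 of 6 and of the endothelial markers 4 of 6. With sex in the model the counts were 7, 3 and 3, and in females alone 3, 2 and 1. Of 4 tested neutrophil markers 0 fell and 1, S100a8, was called higher, where 25.2% of all genes were, and 0 were called with sex in the model or in females alone. The 5 neutrophil markers summed to 67.2 to 2264 normalized counts in growing hair, with 2264 in WT 1, and to 44.1 to 222 elsewhere. Of 8 keratinocyte markers 4 fell and 2 rose, and their sum was 61986 to 115470 in growing hair and 104930 to 162350 elsewhere. With sex in the model 50% of the 8 were called lower and 12.5% higher, where 20.2% of all genes were called higher. In females alone 25% were called lower and 0% higher, where 14.7% of all genes were called higher. The part of these cell markers in the fall of the interferon-stimulated genes was not tested. In bulk skin, fewer cells of a type and less RNA per cell cannot be told apart. In C-IKKα against WT, 0 of the T cell and natural killer markers and 0 of the Langerhans and dendritic markers were called, with medians of 0.35 and 0.66. Markers of B and plasma cells summed to 267 to 889 normalized counts in growing hair and 804 to 3438 elsewhere, with Ms4a1 and Igkc listed at 0 in all libraries. Of their 4 tested genes 75% fell in growing hair, 75% with sex in the model and 50% in females alone. Plasmacytoid dendritic cells are a main source of type I interferon, and their list of 8 markers shares Bst2 and Irf7 with the members. Of its 7 tested genes, 3 fell in growing hair, 2 with sex in the model and 0 in females alone, and 1, Spib, was called higher in C-IKKα than in WT. Siglech, a defining marker of these cells, averaged 90.5 normalized counts in WT and 88.2 in C-IKKα.

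The other genes of the pathway were taken from lists of ligands, receptors, signalling genes, sensors and further targets. Of 21 interferon genes, 0 reached the level needed for testing and 17 are listed at 0 in all libraries, among them Ifnb1, Ifnk and the Ifna genes. Ifng reached 8.55 normalized counts in C-IKKα 18 and stayed at 3.09 or below in the other 17 libraries, near or below what a count of 0 allows. Of 6 receptor genes, 0 were called in C-IKKα or N-IKKα against WT. In growing hair 5 of the 6 receptor genes fell, where 26.3% of all genes did, among them Ifngr1 by 0.99 on the log2 scale (SE 0.13). With sex in the model 2 of the 6 fell, where 21% of all genes did, and in females alone 1, where 12.3% did.

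Of 13 signalling genes, 0 were called in C-IKKα against WT. Irf1, a transcription factor induced by interferon gamma, had the smallest p, with a log2 fold change of 1.19 (SE 0.30, limma adjusted p = 0.138). It ran from 201 through 377 to 460 normalized counts in WT and from 559 through 847 to 984 in C-IKKα, without overlap. With hair state and sex in the model 7.69% of the 13 signalling genes were called higher in C-IKKα, where 0.725% of all genes were. In growing hair 6 signalling genes fell, Irf1 by 0.96 on the log2 scale (SE 0.14), and 1 rose, where 26.3% of all genes fell and 25.2% rose. In females alone 4 signalling genes fell, where 12.3% of all genes did. Of 12 tested nucleic acid sensors, 0 were called in C-IKKα against WT, and Ddx58, which encodes RIG-I, was at 0.75 on the log2 scale (SE 0.21, limma adjusted p = 0.226). In growing hair 7 of these 12 fell, against 26.3% of all genes, and 6 in females alone, against 12.3%.

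Of 5 further GTPases tested, 0 were called in C-IKKα against WT, with a median of 0.65. With hair state and sex in the model 20% of these 5 were called higher, where 0.725% of all genes were. In growing hair 5 of 5 fell, where 26.3% of all genes did, and 5 of 5 in females alone, where 12.3% did. Gbp8 was at 1.38 on the log2 scale in C-IKKα against WT (SE 0.38, limma adjusted p = 0.226) and Gbp11 at 1.59 (SE 0.53, limma adjusted p = 0.482). Of 30 further antiviral genes tested, 0 were called in C-IKKα against WT. In growing hair 23 fell, against 26.3% of all genes, while Slfn9 rose by 1.12 on the log2 scale, where 25.2% of all genes rose. In females alone 18 of the 30 fell, against 12.3% of all genes. Of 12 other tested targets of interferon gamma, 2 were called higher in C-IKKα than in WT, where 0.345% of all genes were. With hair state and sex in the model 7 of the 12 were, against 0.725% of all genes. The 2 were Cxcl9, a chemokine for activated T cells, at 3.80 on the log2 scale (SE 0.49, limma adjusted p = 0.00101), and Ubd, a ubiquitin-like modifier, at 4.66 (SE 0.66, limma adjusted p = 0.00175). The list was chosen with earlier results of these data known, so its counts are no test of the list.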

How the data were processed

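Back skin RNA of 18 mice was measured by stranded poly(A) RNA sequencing, per the labels. The authors counted reads with featureCounts on GRCm39, per the submitters' processing notes, and deposited 1 table of normalized counts, a signal per gene and library. Versions, aligner, annotation release, strand setting and scaling method are not stated there and not given in the sources used here. Within each library, 100% of the values were multiples of a single step to a tolerance of 0.001 reads, so reads were recovered by division.

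Genes with at least 10 normalized counts in at least 6 libraries (17667) were analysed as log2(normalized count + 1), which understates changes of low genes. The 18 libraries entered 1 fit in limma 3.58.1 (R 4.3.3, mean-variance trend), two-sided, with Benjamini-Hochberg adjustment within a contrast and a call below 0.05. Hair state was an additive term beside genotype, growing where the hair list mean exceeded 8 on the log2 scale. Sex was read from Ddx3y above 500 normalized counts. Recovered reads were also tested with DESeq2 1.42.0 and with the robust quasi-likelihood test of edgeR 4.0.16. The pseudocount was changed to 0.5 and 5, the filter was removed or raised to 50, and the further alternatives were TMM and quantile scaling, compared groups alone, each library left out, and hair and sex terms. The fit was tested on simulated counts.

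The members and lists were chosen with earlier results of these data known. Values in full are given for members called in a contrast and for those with the smallest p per subgroup: 4 (2 for transcription factors) in C-IKKα against WT, 2 (1) in N-IKKα against WT and 3 (1) for hair state. Of other lists, called members or the 2 with the smallest p are named. Any other gene was chosen after its values were seen. Whether mice shared litters or cages is not stated, so p-values measure the spread between these mice. Exon lengths came from GENCODE M21 on the earlier mouse build GRCm38 and promoters from RefSeq. No protein sequence was used here.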

Additional observations from a re-analysis of the deposited data

Results flagged for a closer look

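Among 99 sets of 6 libraries, each 1 member in 1 genotype, 13 had a sample far from the others of its group by Dixon's gap criterion. Chance flags about 1 in 20 sets, and the members of 1 library are not independent. N-IKKα 10, which had no growing-hair transcripts, accounted for 11 of the 13, all of them antiviral effectors and none of them GTPases. The gap is judged against the range of the group, and hair state parted the N-IKKα libraries for 6 of 6 GTPases. Hair state also parted them for Ifit1, Oas2, Oasl2 and Mx1, which were flagged. Why no GTPase was flagged was not tested, and no difference between subgroups is drawn from it. N-IKKα 10 was still the highest of its group in 5 of 6 GTPases. In that mouse the normalized count was 247.3 for Ifit1, 146.1 for Ifit3, 186.6 for Oas1a, 665.4 for Oas2, 178.7 for Oas3 and 180.4 for Oasl1. It was 630.2 for Oasl2, 239.4 for Mx1, 89.8 for Ifi44, 136.4 for Bst2 and 249.96 for Ifi27l2a. The next highest N-IKKα library had 85.1 for Ifit1, 255.7 for Oas2 and 48.5 for Oasl1. At the low end, Ifit1 was 75.9 in C-IKKα 14 against 148.7 in the nearest other C-IKKα library, and Irgm1 was 197.5 in WT 4 against 551.4. Both C-IKKα 14 and WT 4 carried growing-hair transcripts, but so did WT 1, the library with the Irgm1 count of 551.4.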

How the results depend on the processing

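The results that changed direction or side of the threshold follow, and their cause was not tested. In C-IKKα against WT, 1 member was called with hair state and sex in the model and 0 under every other alternative run. The genes called there numbered 61 and became 38 with a filter of 50, 151 with DESeq2, 145 with hair state, 135 with hair state and sex, 163 without the growing-hair libraries and 33 to 73 with 1 library left out. In N-IKKα against WT, 1 gene was called, 2 with no filter, DESeq2 or without the growing-hair libraries, 0 with a filter of 50 or the compared groups alone, and 1 to 2 with 1 library left out. Without the growing-hair libraries, 16 of 33 members changed sign there and 17 were positive, among them Stat2 at 0.10 and Gbp2 at 0.027 on the log2 scale. In C-IKKα against WT and in N-IKKα against C-IKKα, 4 of 33 each changed sign without them. In N-IKKα against C-IKKα, 1 member was called with hair state, 1 with hair state and sex, and 0 to 1 with 1 library left out. Of genes, 76 were called, 47 with a filter of 50, 188 with DESeq2, 123 with hair state, 132 with hair state and sex, and 39 to 103 with 1 library left out. For hair state, 0 members were called higher with no filter, quantile scaling, edgeR, hair state and sex, or females alone, and 0 to 1 with 1 library left out. Members called lower ranged from 16 without WT 4 to 26 without WT 1, and genes called fell from 9091 to 4770 in females alone. Over leave-outs the C-IKKα against WT median ran from 0.20 to 0.52 for antiviral effectors and from 0.38 to 0.77 for GTPases. The N-IKKα against WT median ran from -0.59 without N-IKKα 10 to -0.15 without WT 2 for antiviral effectors, from -0.25 to -0.06 for transcription factors, and from -0.60 without WT 4 to -0.24 without N-IKKα 11 for GTPases. Scaling moved the median of all genes by under 0.1. No paired analysis was possible because the mice are numbered 1 to 18 and the groups share no number.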
